A study of Mus musculus with 4 samples.

Results

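Cortical thymic epithelial cells (cTECs) were selected on the measured levels of Psmb11, Prss16 and Ccl25, and 138 of 10245 kept stromal cells met the rule. A cell was taken when UMIs of Psmb11, Prss16 and Ccl25 made up at least 5 of every 10000, when at least 2 of these 3 genes were detected, and when it held 0 UMIs of Aire, Pecam1 and Pdgfra. A UMI is a tag that marks 1 captured transcript. By library this gave 44 of 1517 cells (WT 1), 6 of 474 (WT 2), 41 of 4636 (Z/Z 1) and 47 of 3618 (Z/Z 2), counting cells with over 1000 genes and under 20% mitochondrial UMIs. The rule read the 3 genes themselves, so their levels are given as a description and carry no test.

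The cells came from untreated C57BL/6 mice, 6 months old, in 2 libraries with the wild-type Foxn1 gene (WT) and 2 homozygous for LacZ at Foxn1 (Z/Z), an allele the study uses as a model of lowered Foxn1. Thymi of several mice were pooled, digested with liberase, depleted of CD45-positive cells on magnetic beads, sorted and profiled by droplet-based 3′ RNA-seq. The labels record the sex as female in one field and male in another, and they do not say whether the libraries of a genotype came from separate pools, so p-values measure the spread between these libraries only.

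The thymic cortex is the site where immature thymocytes gather, commit to the T cell lineage and are positively selected. cTECs supply the Notch ligand, chemokine and cytokine signals for the first steps, and they present self peptides made by a proteasome with a subunit of their own, encoded by Psmb11, and by the protease that Prss16 encodes. Foxn1 is the transcription factor on which the development and upkeep of thymic epithelium depend, and Psmb11, Ccl25 and Dll4 are known among the genes it acts on.

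The number of cells and the depth behind them were unequal. The cTECs held 1271149, 134454, 705315 and 1143975 UMIs in WT 1, WT 2, Z/Z 1 and Z/Z 2, with medians per cell of 17900.5, 12143, 11574 and 15238. In WT 2 a single cell supplied 56.9% of the UMIs, and the largest pair of cells 79.3%. Libraries of 1 genotype shared called barcodes, 202 between the WT libraries and 249 between the Z/Z libraries, against 0 to 6 across genotypes. Of the cTECs, 9, 3, 6 and 5 carried a barcode called in any other library, and 8, 3, 5 and 5 one called in the other library of their genotype. The largest WT 2 cell was one of them. Values without these cells are given for the share of cTECs, for the counts of called genes and for the genes where a call or direction changed.

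The level of the rule genes differed between libraries. Summed over Psmb11, Prss16 and Ccl25, the median cell had 68.0 (WT 1), 19.1 (WT 2), 15.9 (Z/Z 1) and 19.4 (Z/Z 2) UMIs per 10000. WT 1 stood apart, and WT 2 lay within the range of the Z/Z libraries. Cells above 100 per 10000 numbered 14, 1, 1 and 2, and all 3 genes were detected in 34, 4, 22 and 28 cells. The 28 cells just inside the threshold had 5.10 to 7.41 UMIs per 10000, of which 26 had Epcam UMIs, and the 38 cells just outside had 2.53 to 4.80, of which 34 did. By library, 6 (WT 1), 0 (WT 2), 13 (Z/Z 1) and 9 (Z/Z 2) cells lay just inside. In the same order, 7, 0, 16 and 12 cTECs had under 10 per 10000, so cells low in the rule genes were more frequent in Z/Z. A further 20 cells reached the rate but held Aire UMIs, and 72 held Pecam1 or Pdgfra UMIs, 28 of these in WT 1 and 37 in Z/Z 2.

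**Figure D1:**
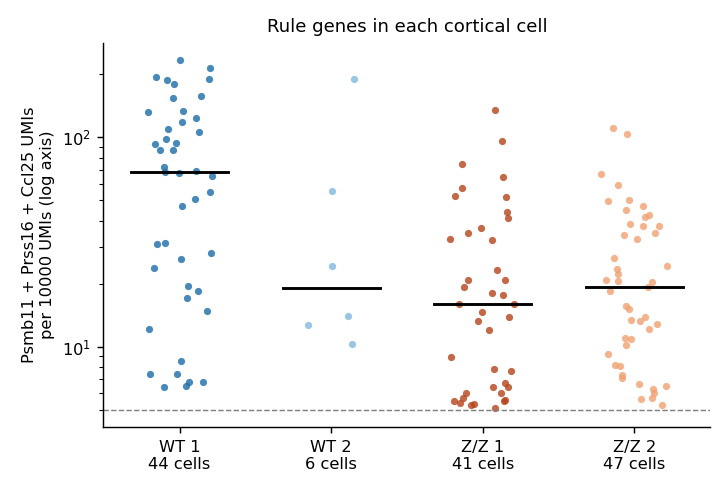
Summed UMIs of Psmb11, Prss16 and Ccl25 per 10000 UMIs in each of the 138 cTECs, on a log axis, by library. Bars are medians and the dashed line is the threshold of 5; the WT 1 median of 68.0 lies above those of the other libraries, which span 15.9 to 19.4.

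UMIs were summed over the cTECs of a library and turned into counts per 1000000 (CPM), with edgeR's TMM scaling. Psmb11 (chromosome 14, 54621433 to 54629556, plus strand, GRCm38) had 868 and 347 in the WT libraries and 256 and 254 in the Z/Z libraries. Prss16 (chromosome 13, 22002173 to 22009742, minus strand) had 3857 and 1568 in WT against 1176 and 2132 in Z/Z. Ccl25 (chromosome 8, 4325210 to 4360020, plus strand), the chemokine that draws progenitors through their CCR9 receptor, had 5558 and 3459 in WT against 947 and 1153 in Z/Z. WT and Z/Z libraries lay apart for Psmb11 and Ccl25, as for 41.7% of all genes tested, and overlapped for Prss16. These values come from cells chosen for the same genes, and cells near the threshold set their lower end.

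The sequences before the start sites of both non-overlapping rule genes, and of 2 genes outside the rule that were lower in Z/Z, are shown because the altered gene encodes a DNA-binding factor whose core motif is GACGC. They are the 250 bases before the RefSeq start site on the gene's own strand (GRCm38.p6), at chr14:54625060-54625309 for Psmb11 (plus), chr8:4324960-4325209 for Ccl25 (plus, the upstream of 2 starts), chr10:100015571-100015820 for Kitl (plus) and chr7:139582798-139583047 for Nkx6-2 (minus). Capitals mark GACGC, or GCGTC, which is the same motif on the opposite strand.
Psmb11: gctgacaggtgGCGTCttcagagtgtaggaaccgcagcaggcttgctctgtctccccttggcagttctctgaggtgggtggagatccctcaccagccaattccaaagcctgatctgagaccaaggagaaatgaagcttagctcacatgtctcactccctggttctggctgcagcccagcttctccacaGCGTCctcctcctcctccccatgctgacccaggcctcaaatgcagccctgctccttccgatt
Ccl25: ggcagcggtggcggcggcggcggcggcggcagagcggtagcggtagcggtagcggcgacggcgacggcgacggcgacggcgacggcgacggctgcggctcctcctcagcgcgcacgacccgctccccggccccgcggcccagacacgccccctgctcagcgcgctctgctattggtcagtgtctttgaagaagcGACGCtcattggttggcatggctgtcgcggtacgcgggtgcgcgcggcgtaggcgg
Kitl: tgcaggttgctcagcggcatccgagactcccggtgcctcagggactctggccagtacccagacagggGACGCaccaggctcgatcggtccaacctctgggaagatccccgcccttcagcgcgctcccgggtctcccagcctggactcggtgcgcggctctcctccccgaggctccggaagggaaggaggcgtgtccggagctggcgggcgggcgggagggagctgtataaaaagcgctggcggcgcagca
Nkx6-2: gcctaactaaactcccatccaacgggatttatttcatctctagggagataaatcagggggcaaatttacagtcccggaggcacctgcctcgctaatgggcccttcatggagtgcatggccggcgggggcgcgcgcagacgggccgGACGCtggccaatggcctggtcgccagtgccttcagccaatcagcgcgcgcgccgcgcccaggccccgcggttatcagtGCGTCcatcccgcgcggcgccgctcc
The motif occurred 2 times before Psmb11, 1 time before Ccl25, 1 time before Kitl and 2 times before Nkx6-2. It occurred 0 times before the downstream start of Ccl25. Of the other lower genes described further on from those of lowest p, Opcml and AA467197 held it. Arfgef3, Mndal, Chst8 and Serpinb3a did not, so the sequences shown are not a sample of the lower genes. Of the cortical identity list, 13 of 15 genes matched the table and 4 held the motif (30.8%), beside 24.8% of all 27025 genes in the table and 46.3% of the 7072 matched genes that were tested in cTECs. Among the called genes described further on, it was present for 11 of 30 matched genes higher in Z/Z (36.7%) and 13 of 32 matched genes lower (40.6%). A match of 5 letters is a description and not a binding site.

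The label of the cells was checked against markers that the rule did not use. Tbata, a gene of thymic stroma, was detected in 114 of 138 cTECs (82.6%), in 17.4% of 2453 other cells with Epcam UMIs and in 4.56% of 2061 Pdgfra fibroblasts. Ly75, which encodes the endocytic receptor DEC-205, was detected in 84.1% of cTECs, 46.2% of other Epcam cells and 3.40% of fibroblasts. Foxn1 itself was detected in 70.3%, 31.3% and 0.534%. The median depth was 11574 to 17900.5 UMIs over the libraries in cTECs, 7737 to 16407.5 in other Epcam cells and 11064 to 16054 in fibroblasts. These shares were not matched for depth. The fibroblast shares hold stray RNA together with any expression of the gene by fibroblasts. Epcam UMIs were present in 123 of 138 cTECs. In CPM without TMM scaling, as for every ratio between cell sets and every sum over a gene list, the mean over libraries was 5.33 times higher in cTECs than in other Epcam cells for Ly75, 5.31 times for Slc46a2, 5.51 times for the lysosomal protease gene Ctsl, 5.21 times for Cd83 and 4.46 times for Enpep, which encodes the Ly51 antigen of cTECs. Cd83 was high in WT 1 only, with 331 (WT 1), 56.7 (WT 2), 47.7 (Z/Z 1) and 57.1 CPM (Z/Z 2) in cTECs. Epcam cells with at least 2 Aire UMIs had 53.9, 71.2, 76.2 and 70.7. By library the ratio was 17.2 and 6.34 in WT against 2.46 and 3.24 in Z/Z for Ctsl. It was 9.79 and 5.59 against 2.95 and 3.30 for Ly75, and 8.69 and 4.38 against 5.56 and 4.13 for Slc46a2. Enpep had 147 and 97.1 CPM in WT cTECs beside 13.6 and 8.63 in other Epcam cells. In Z/Z it had 93.9 and 39.1 beside 39.7 and 22.6. Tbata, whose ratio was larger in Z/Z, was detected in 48 of 50 WT and 66 of 88 Z/Z cTECs. Enpep and Ctsl set cTECs less apart from fibroblasts. Enpep was detected in 44.2% of cTECs and 29.5% of fibroblasts, and Ctsl in 94.9% and 98.0%.

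Outside the rule, and at 100 CPM or more in every library, the genes with the highest ratio of cTECs to other Epcam cells were Tbata (17.1 times), Shisa6 (12.7), Cxcl12 (11.6), Isg20 (9.29), Synm (8.96), Pltp (7.004), Cdh4 (6.96), Fgf14 (6.87), Shisa2 (6.74) and Crip3 (6.67). These are ratios of means over the 4 libraries, and the order was not the same in both genotypes. Tbata was 14.7 and 13.6 times higher in the WT libraries and 31.6 and 32.7 times in the Z/Z libraries, and Cxcl12 was 37.9 and 24.4 times higher in WT and 6.02 and 6.90 times in Z/Z. Cxcl12 encodes the ligand of CXCR4 that holds early thymocytes in the cortex, Cdh4 a cadherin, Synm an intermediate filament protein and Pltp a phospholipid transfer protein. Cxcl12 had 1241 and 966 CPM in WT against 746 and 900 in Z/Z cTECs. Fgf14 had 2250 and 859 CPM in WT against 565 and 391 in Z/Z, and Crip3 had 598 and 446 against 156 and 265. The groups did not overlap for these 3 genes, nor for Tbata, Shisa6, Synm and Cdh4, beside 41.7% of all genes tested, and they overlapped for Isg20, Pltp and Shisa2. None of the 10 genes passed the threshold for genotype (edgeR adjusted p under 0.05). The ratios describe the selected cells and were not tested.

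Cells that met the rule were a smaller share of the Epcam cells in both Z/Z libraries. Since the rule is a threshold on Psmb11, Prss16 and Ccl25, fewer cortical cells and less of these transcripts per cell cannot be told apart in this share. Among cells with Epcam UMIs and no Pecam1 or Pdgfra UMIs, together with the cTECs themselves, they made up 11.2% in WT 1 (44 of 392, 95% Clopper-Pearson interval 8.28% to 14.8%) and 5.88% in WT 2 (6 of 102, 2.19% to 12.4%). They made up 3.57% in Z/Z 1 (41 of 1150, 2.57% to 4.81%) and 4.96% in Z/Z 2 (47 of 947, 3.67% to 6.55%). The WT mean was 8.55% ± 3.78 (SD, n = 2) and the Z/Z mean 4.26% ± 0.988 (SD, n = 2), a difference of −4.29 percentage points. The exact permutation test, two-sided, gave p = 0.333, the lower limit for a design of 2 libraries per genotype, and the WT 2 interval covers both Z/Z values. As a share of all kept cells the groups overlapped, with 2.90% and 1.27% in WT against 0.884% and 1.30% in Z/Z (exact permutation p = 0.667). Without shared barcodes the shares were 9.89% and 5.56% in WT against 3.32% and 4.64% in Z/Z. Restricted to cTECs with Epcam UMIs, the shares were 9.38% and 4.00% in WT against 3.14% and 4.96% in Z/Z and also overlapped. These intervals cover counting error only, and the depletion and sort stand between the tissue and these shares.

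**Figure D2:**
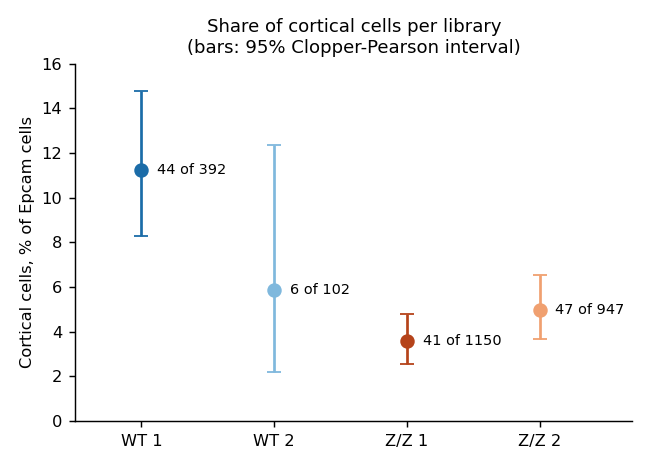
Share of cTECs among Epcam cells in each library, in percent, with 95% Clopper-Pearson intervals. The WT 1 value of 11.2% lies above the other 3, and the interval of WT 2 (2.19% to 12.4%) covers both Z/Z values.

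Foxn1 (ENSMUSG00000002057, chromosome 11, 78357577 to 78386558, minus strand), the altered gene, was present in cTECs of all 4 libraries. From WT 1 to Z/Z 2, in the order used above, it had 221, 17, 72 and 153 UMIs, or 192, 140, 112 and 150 CPM. The groups overlapped, since WT 2 lay between the Z/Z libraries. The log2 fold change of −0.38 (SE 0.33) was not past the threshold (edgeR adjusted p = 0.746), and it was −0.15 in other Epcam cells (edgeR adjusted p = 0.634). In bulk sums like these, fewer cells with a transcript and less of it per cell cannot be told apart. With each cell thinned to 2000 UMIs, Foxn1 was detected in 10 of 42, 1 of 4, 7 of 40 and 9 of 47 cTECs (23.8%, 25%, 17.5% and 19.1%), beside at most 0.454% of fibroblasts, and without thinning in 30 of 44, 3 of 6, 28 of 41 and 36 of 47. Where in the gene LacZ lies was not stated in the labels or the methods, so 3′ tags of Foxn1 may not report on the altered allele.

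Of the 15 genes listed for cortical identity, 12 lie outside the rule, and 9 of these had negative and 3 positive log2 fold changes. All 12 were tested and 0 passed the threshold in either direction, which 0.920% of all tested genes did, with a median log2 fold change of −0.44 beside 0.02 over the 8916 genes tested. Counts at an unadjusted level are given with the totals further on. Tbata had 6228 and 3318 CPM in WT against 1253 and 2595 in Z/Z, with a log2 fold change of −1.31 (SE 0.48, edgeR adjusted p = 0.296). Ly75 had 1137 and 578 CPM in WT against 373 and 363 in Z/Z, with a log2 fold change of −1.24 (SE 0.39, edgeR adjusted p = 0.209). The groups did not overlap for either gene. Without WT 2 the log2 fold changes were −1.68 for Tbata and −1.61 for Ly75, and without its largest cell −1.68 and −1.43, and all 4 of these values passed. With WT 2 left out, WT 1, where the rule genes were highest, is the lone WT library, and the spread comes from the Z/Z libraries alone. Cd83, which encodes a surface protein that stabilises MHC class II, had 338 and 57.8 CPM in WT against 46.8 and 56.0 in Z/Z, so that only WT 1 was high. With WT 2 left out, so that WT 1 stood alone, the log2 fold changes of Cd83 (−2.69), Ctsl (−1.38) and Enpep (−1.24) passed. Cd83 also passed without the largest WT 2 cell (−2.34). Ctsl, whose product cuts the invariant chain in cTECs, had 9481 and 4012 CPM against 3059 and 4154, and Enpep had 150 and 99.1 against 92.0 and 38.3. Slc46a2 ran the other way, with 346 and 231 CPM in WT against 442 and 355 in Z/Z, and so did the keratin gene Krt18, with 4136 and 3789 against 4170 and 7450.

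Among the signals from cTECs to thymocytes, Kitl was lower in Z/Z. Of the 8 listed ligand genes that were tested and lie outside the rule, 0 were called higher and 1 was called lower, beside 0.460% of all tested genes in each direction. The median log2 fold change was −0.44. Kitl, which encodes stem cell factor, the ligand of KIT on early progenitors, had 543 and 198 CPM in WT against 87.4 and 78.5 in Z/Z. Both Z/Z libraries lay below both WT libraries, where 41.7% of all genes tested had groups that lay apart. The log2 fold change of −2.23 (SE 0.44) passed (edgeR adjusted p = 0.0449). A single cell held 393 of the 626 Kitl UMIs of WT 1, and without WT 1 the log2 fold change was −1.26 and did not pass (edgeR adjusted p = 0.0825). Without Z/Z 2 it was −2.14, with an edgeR adjusted p of 0.173. Without barcodes shared between libraries it was −1.04, with an edgeR adjusted p of 0.882. Kitl was not particular to cTECs. Fibroblasts had 260 and 316 CPM in WT against 265 and 181 in Z/Z, without TMM scaling. It was detected in 63.5% of fibroblasts and 56.5% of cTECs. Il15, a cytokine of lymphocyte survival, had 114 and 33.0 CPM in WT against 10.9 and 29.5 in Z/Z and did not pass (log2 fold change −2.04, edgeR adjusted p = 0.146), although it did without WT 2 (−2.39). Il7, the main growth factor of early thymocytes, had 202 and 190 CPM against 207 and 159. Dll4, the Notch ligand of T lineage commitment, had 34.7 and 24.8 CPM against 18.7 and 27.5, from 40, 3, 12 and 28 UMIs. The Notch ligand genes Dll1 and Jag1 had levels in the Z/Z libraries that lay within those of the WT libraries, and Jag2 had 95.4 and 82.5 CPM in WT against 54.6 and 59.9 in Z/Z. Flt3l, Tslp and Bmp4 were too low to be tested, with at most 15 UMIs in a library.

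**Figure D3:**
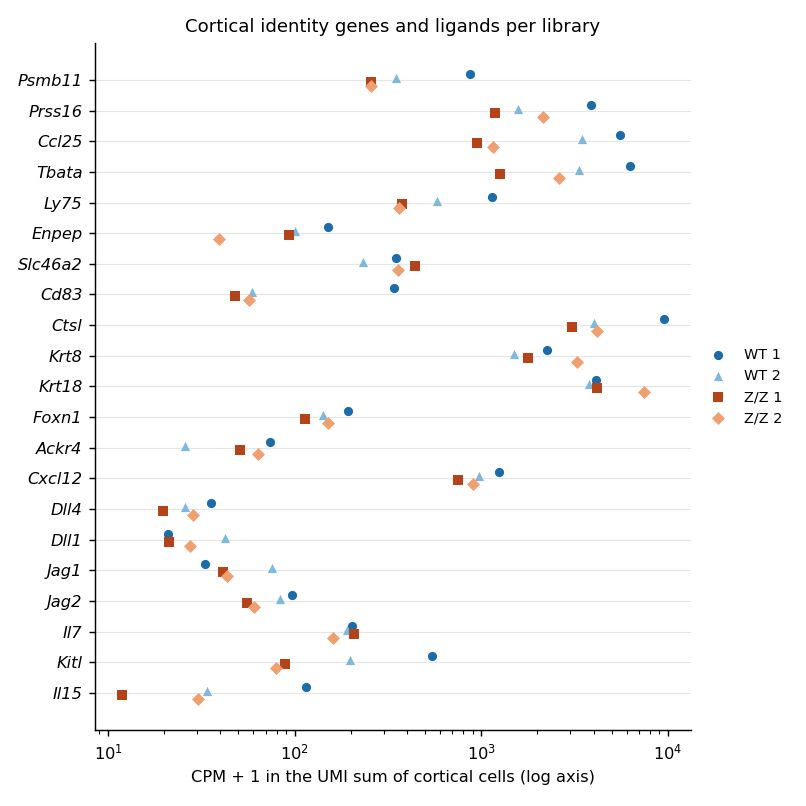
CPM + 1 in the UMI sums of cTECs for the cortical identity genes and ligand genes, on a log axis, with 1 point per library. The 3 genes of the rule head the plot and carry no test. WT 1 is the highest library for Tbata, Ly75, Cd83, Ctsl and Kitl, and only Kitl of the genes outside the rule passed the threshold.

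Of 15 genes of MHC class I presentation outside the rule, 2 passed the threshold, B2m and Nlrc5, both lower, beside 0.460% of all tested genes called lower. The median log2 fold change of the list was −0.44. B2m, which encodes the light chain of MHC class I, had 2261 and 2509 CPM in WT against 730 and 619 in Z/Z, with a log2 fold change of −1.82 (SE 0.37, edgeR adjusted p = 0.0467). Nlrc5, which encodes the transactivator of MHC class I genes, had 150 and 223 CPM in WT against 48.4 and 53.0 in Z/Z, with a log2 fold change of −1.80 (SE 0.35, edgeR adjusted p = 0.0433). Both pairs of groups lay apart, as for 41.7% of all genes tested. Both calls were close to the threshold and were lost without either Z/Z library and without shared barcodes, where the log2 fold changes were −0.92 and −1.21. The heavy chain gene H2-K1 had 1832 and 2229 CPM against 878 and 957 and passed only without WT 1 among the alternatives run (log2 fold change −1.28, edgeR adjusted p = 0.0368). H2-D1 did not pass, with 937 and 1255 against 774 and 714. The immunoproteasome genes Psmb9 and Psmb10 had 689 and 404, and 673 and 297, CPM in WT, and 326 and 387, and 293 and 468, in Z/Z. In other Epcam cells B2m was lower as well, with a log2 fold change of −1.46 (edgeR adjusted p = 0.0211).

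For MHC class II presentation 0 of 11 tested genes outside the rule passed, with a median log2 fold change of 0.15. Cd74, the invariant chain gene, had 7288 and 6464 CPM in WT against 7487 and 11739 in Z/Z, and H2-Ab1 had 2576 and 1791 against 2504 and 3321. In other Epcam cells Cd74 had a log2 fold change of −0.65, and the difference between the cell sets was 1.25 and passed the threshold (edgeR adjusted p = 0.0481). The autophagy and lysosome list, of interest because cTECs load self peptides by autophagy, had 0 of 18 genes past the threshold and a median of −0.10. Map1lc3b, which encodes a core autophagosome protein, had 379 and 438 CPM in WT against 307 and 395 in Z/Z.

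Over all genes, 82 of 8916 tested in cTECs passed the threshold between genotypes (0.920%), with 41 higher (0.460%) and 41 lower (0.460%) in Z/Z. Ccl25, a gene of the rule, is 1 of the lower genes and is not counted as a finding, which leaves 40 lower and 81 in all. The groups did not overlap for any of the 81, as for 41.7% of the genes tested. At an unadjusted p under 0.05 there were 519 genes higher and 514 lower. In the other Epcam cells, with more UMIs, 1809 of 17009 genes passed (10.6%), with 885 higher (5.20%) and 924 lower (5.43%). Of the 81 genes, 37 were called in the same direction there, 0 in the opposite direction, and 44 were not called. Both sets come from the same 4 libraries. WT 2 entered with 6 cells. Without WT 2, 359 genes were higher and 467 lower, and 81 of the 81 calls kept their direction and passed, although WT 1 is then the lone WT library. Without WT 1 there were 166 and 248, with WT 2 as the lone WT library, and 51 of the 72 calls still tested passed. Without Z/Z 1 there were 46 and 86, with 60 of 81 calls kept, and without Z/Z 2 there were 31 and 29, with 43 kept. Without the largest cell of WT 2 there were 120 and 131, and 73 of 74 calls still tested passed. Without shared barcodes there were 78 and 59, and 39 of 62 passed. At 10 rule UMIs per 10000 there were 26 and 25, and 48 of the 80 calls still tested passed. A mean over cells, which gives each cell equal weight, left 0 genes under limma, with 289 and 280 at an unadjusted p under 0.05, and 80 of 81 genes kept their direction.

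The 8 genes with the lowest p among those that rose in Z/Z cTECs were Kirrel3, Mdk, Gpc5, Enho, Mylk, Ccdc80, Gstm1 and Phex. Kirrel3 (chromosome 9, 34485894 to 35036716, plus strand), which encodes an adhesion molecule of the immunoglobulin family, had 66.8 and 74.3 CPM in WT against 1183 and 1000 in Z/Z. Its log2 fold change was 3.98 (SE 0.40, edgeR adjusted p = 0.00276), and it was detected in 8 of 44 and 3 of 6 WT cells and in 34 of 41 and 35 of 47 Z/Z cells. In WT 1, 65 of its 77 UMIs came from 1 cell. Mdk, which encodes the heparin-binding growth factor midkine, had 28.6 and 49.5 CPM in WT against 423 and 463 in Z/Z, with a log2 fold change of 3.72 (SE 0.41). It was detected in 6 and 4 WT cells and in 34 and 43 Z/Z cells. Gpc5, which encodes a heparan sulfate proteoglycan of the membrane, had 52.9 and 16.5 CPM against 510 and 486, with a log2 fold change of 3.52. Of its 61 UMIs in WT 1, 51 came from the deepest cell, which also held the 65 Kirrel3 UMIs. Enho, the gene of the peptide adropin, had 32.1 and 24.8 CPM against 192 and 230 (log2 fold change 2.78), and Ccdc80, the gene of a matrix protein, had 48.6 and 33.0 against 240 and 303 (2.61). Mylk, which encodes myosin light chain kinase, had 16.5 CPM in WT 1, 0 UMIs in WT 2, and 184 and 156 CPM in Z/Z. Gstm1, a glutathione transferase gene with near copies that can share reads, had 14.7 CPM in WT 1, 0 UMIs in WT 2, and 136 and 251 CPM in Z/Z. Phex, which encodes a membrane endopeptidase, had 15.6 and 24.8 CPM against 220 and 121. For these 8 genes the edgeR adjusted p ran from 0.00276 to 0.0142. Both Z/Z libraries lay above both WT libraries for each, which the choice of genes required. Without shared barcodes, 4 of them kept their direction and no longer passed, namely Kirrel3 (log2 fold change 6.23), Mdk (4.45), Ccdc80 (2.78) and Phex (2.99). All 8 genes were also higher in both Z/Z libraries of the other Epcam cells. The share of all genes whose groups lay apart was not computed for that set, where 5.20% of tested genes were called higher. There, in CPM without TMM scaling, Kirrel3 had 154 and 515 in WT against 1542 and 1156 in Z/Z. Gpc5 had 97.7 and 27.5 against 547 and 417, and Gstm1 had 386 and 446 against 1211 and 1411. The remaining genes called higher in cTECs had log2 fold changes from 1.77 to 7.26.

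Among the genes that fell, several were nearly absent from Z/Z cTECs. Nkx6-2 (chromosome 7, 139579376 to 139582797, minus strand), which encodes a homeodomain transcription factor, had 156 and 26 UMIs in WT against 0 and 2 in Z/Z, or 135, 215, 0 and 1.96 CPM. It was detected in 19 of 44 and 2 of 6 WT cells and in 0 of 41 and 2 of 47 Z/Z cells, and its log2 fold change was −6.93 (SE 0.67, edgeR adjusted p = 0.00276). Opcml, which encodes an adhesion molecule anchored by glycosylphosphatidylinositol, had 697 and 272 CPM in WT against 10.9 and 17.7 in Z/Z, with a log2 fold change of −5.08 (SE 0.53, edgeR adjusted p = 0.00351). It was found in 31 of 44 and 4 of 6 WT cells and in 5 of 41 and 12 of 47 Z/Z cells. Chst8, a sulfotransferase gene, had 115 and 149 CPM against 12.5 and 8.84 (log2 fold change −3.59), and was found in 24 and 3 WT cells and in 5 and 7 Z/Z cells. Arfgef3, named for its relation to exchange factors of ARF proteins, had 81.5 and 149 CPM against 4.68 and 2.95 (−4.78), and all 18 of its UMIs in WT 2 came from the largest cell. AA467197 had 272 and 82.5 CPM against 12.5 and 15.7 (−3.77), with 161 of 313 UMIs of WT 1 in 1 cell. Serpinb3a, a protease inhibitor gene with near copies that can share reads, had 144 and 4 UMIs in WT and 0 in both Z/Z libraries, which makes it at least 43.7-fold lower. This bound rests on 3 counts over the Z/Z group. Mndal, of the interferon-inducible p200 family, whose members can share reads, had 115 and 173 CPM against 7.80 and 11.8 (−3.74), with 99 of 133 UMIs of WT 1 in 1 cell. These 7 genes had edgeR adjusted p-values from 0.00276 to 0.0127. All 7 were also lower in both Z/Z libraries of the other Epcam cells, in CPM without TMM scaling. The share of all genes whose groups lay apart was not computed for that set, where 5.43% of tested genes were called lower. There Nkx6-2 had 33.9 and 51.2 in WT against 2.59 and 5.08 in Z/Z. Fibroblasts held much Opcml, with 888 and 625 CPM in WT against 523 and 644 in Z/Z. They also held much Mndal, with 447 and 541 against 604 and 513. The rest of the 7 had at most 79.0 CPM in fibroblasts of any library. Without shared barcodes, Opcml (log2 fold change −4.70), Chst8 (−2.63) and AA467197 (−4.02) passed, and Nkx6-2, Arfgef3, Serpinb3a and Mndal were too low to be tested.

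**Figure D4:**
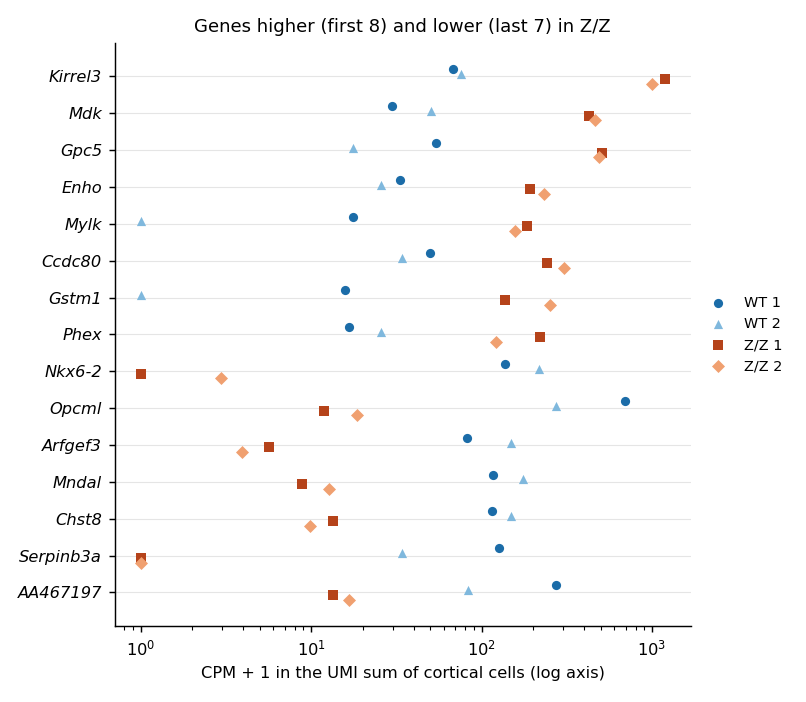
CPM + 1 in the UMI sums of cTECs on a log axis, with 1 point per library, for 8 genes higher and 7 genes lower in Z/Z, chosen by lowest p. Within each gene the WT and Z/Z points do not overlap, which the choice of genes required, and Serpinb3a lies at 0 CPM in both Z/Z libraries.

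Other gene groups showed few calls, to be read beside the 0.920% of all tested genes that passed. Transcription factors of thymic epithelium had 0 of 11 past the threshold and a median log2 fold change of 0.24. Pax1, which acts in the thymic primordium, had 533 and 438 CPM in WT against 418 and 375 in Z/Z. Growth factor receptors had 0 of 12, with a median of −0.01. Lifr, the receptor gene for leukaemia inhibitory factor, had 1320 and 636 CPM in WT against 491 and 376 in Z/Z. Of 14 keratin and junction genes 1 passed, Krt19, lower in Z/Z with 39.0 and 99.1 CPM in WT against 0 and 3.93 in Z/Z (log2 fold change −4.49, SE 0.85, edgeR adjusted p = 0.0380). Of its 45 UMIs in WT 1, 35 came from 1 cell. Epcam had 413 and 471 CPM in WT against 722 and 1069 in Z/Z and did not pass. Of 19 cell cycle genes only 5 were high enough to test, and Ccnd2, the cyclin D2 gene, was higher in Z/Z with 51.2 and 33.0 CPM against 142 and 311 (log2 fold change 2.29, SE 0.45, edgeR adjusted p = 0.0449). In WT 1, 57 of its 59 UMIs came from 1 cell, and without Z/Z 2 its log2 fold change was 1.63 and did not pass (edgeR adjusted p = 0.408). Pcna, which encodes a DNA replication clamp, had 47 and 13 UMIs in WT against 29 and 25 in Z/Z, and was detected in 64 of 138 cTECs (46.4%), 31.3% of other Epcam cells and 37.8% of fibroblasts. Mki67 was detected in 22 cTECs (15.9%, beside 7.30% of other Epcam cells and 3.20% of fibroblasts), with at most 18 UMIs in a library. Top2a had at most 6 UMIs in a library, and Ccna2 was at 0. Interferon response genes had 0 of 13 past the threshold, with a median of 0.27. Markers of age-associated epithelium had 0 of 4.

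Signs of cell handling and of other cells were read from their own lists. The list of genes induced by dissociation summed to 9931 (WT 1), 27994 (WT 2), 24780 (Z/Z 1) and 19869 CPM (Z/Z 2), so WT 1 was the low library. Of its 14 genes, 1 passed, beside 0.920% of all tested genes. It was Nr4a1, an immediate early gene, with 13.01 and 24.8 CPM in WT against 159 and 99.2 in Z/Z (log2 fold change 3.08, SE 0.49, edgeR adjusted p = 0.0152). Thymocyte genes, 25 listed, summed to 1055 and 413 CPM in the WT libraries and to 390 and 436 in the Z/Z libraries. All 19 that were tested had negative fold changes with a median of −1.11, and 0 passed. In barcodes with under 100 UMIs, which hold mostly RNA from outside cells, the same list summed to 7170, 11969, 705 and 3034 CPM. Over 13 of these genes, at least 2 UMIs were found in 17 of 44, 5 of 6, 5 of 41 and 18 of 47 cTECs, and 169 of the 513 UMIs in WT 1 came from 1 cell. Without these cells, which left 1 cell in WT 2, 57 genes were higher and 94 lower, Ccdc80 (log2 fold change 1.93), Nr4a1 (2.11) and Ccnd2 (1.07) no longer passed, B2m had a log2 fold change of −1.46 and Nlrc5 one of −0.62, neither of which passed, and Tbata one of −2.32, which did (edgeR adjusted p = 0.00583). The part of thymocyte RNA in the other differences was not tested. Of other cell types, Adgre1, C1qb and Itgax were at 0 in all libraries, as were Pecam1, Pdgfra and Aire by the rule. The macrophage and dendritic cell list was not at 0, and summed to 73.1 (WT 1), 24.3 (WT 2), 28.6 (Z/Z 1) and 27.1 CPM (Z/Z 2). Ptprc, which encodes CD45, was detected in 30 of 138 cTECs (21.7%), 10.6% of other Epcam cells and 10.04% of fibroblasts. Of its 111 UMIs in cTECs, 79 were in WT 1. Cd68, Csf1r, Lyz2 and C1qa had 7, 5, 5 and 3 UMIs over the libraries. Fibroblast genes summed to 173 to 200 CPM, endothelial genes to at most 28.9, with Plvap at 31 UMIs in WT 1, and B cell genes to at most 19.1. Medullary genes, whose Ccl21a marks another branch of the epithelium, summed to 995 and 2858 CPM in WT against 1332 and 840 in Z/Z. Most Ccl21a UMIs of WT 2, Z/Z 1 and Z/Z 2 were in 1 cell each (217 of 237, 459 of 521 and 203 of 241).

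**Figure D5:**
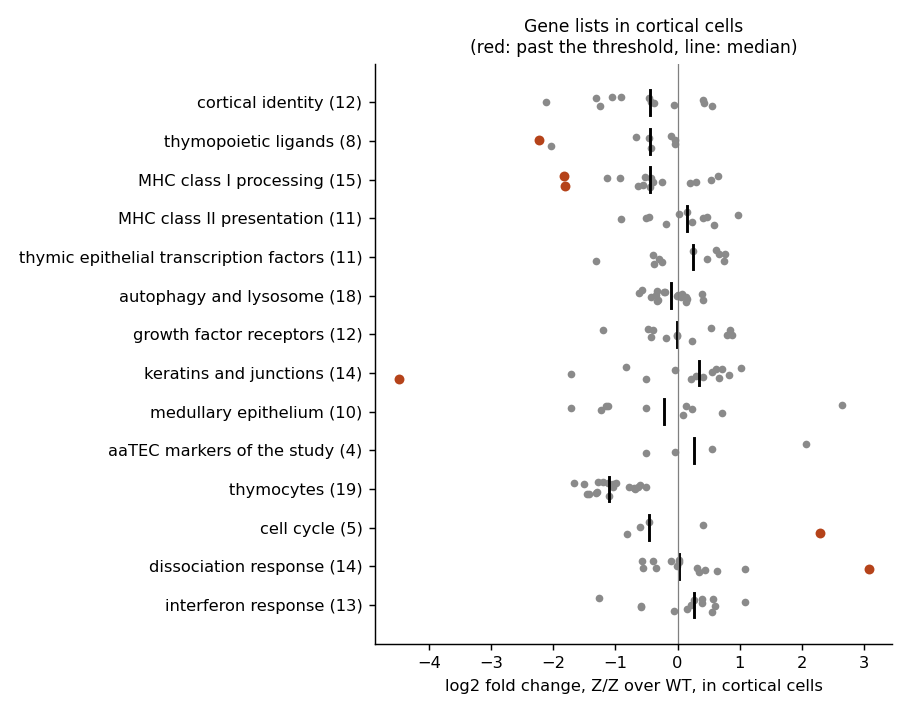
Log2 fold change (Z/Z over WT) of each tested gene in cTECs, by gene list, with the number of genes in parentheses. Red points passed the threshold and lines are medians. The 19 thymocyte genes lie below 0, and the calls are Kitl, B2m, Nlrc5, Krt19, Ccnd2 and Nr4a1.

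The genotype difference in cTECs was set against that in the other Epcam cells of the same libraries by an interaction term, in which 156 of 12752 genes passed (1.22%), 53 with a higher and 103 with a lower log2 fold change in cTECs. Ryr3, which encodes a calcium release channel, had 419 and 186 UMIs in WT cTECs and 12 and 24 in Z/Z cTECs. Its log2 fold change was −5.42 in cTECs (SE 0.74, edgeR adjusted p = 0.0184) and −1.08 in other Epcam cells, where it did not pass, and the difference was −4.12 (SE 0.37, edgeR adjusted p = 0.000295). In WT 1, 195 of its UMIs came from 1 cell, and in WT 2, 140 came from the largest cell, whose barcode is shared. Without shared barcodes the log2 fold change in cTECs was −3.80 and passed, and the difference was −2.30 and did not (edgeR adjusted p = 0.188). Cxcl12 was higher in Z/Z than in WT in the other Epcam cells, at 132 and 135 CPM against 31.0 and 37.8 (log2 fold change 1.97, edgeR adjusted p = 0.0170), and had a log2 fold change of −0.43 in cTECs, which turned to 0.53 without shared barcodes. The difference was −2.31 (edgeR adjusted p = 0.0114). Enpep differed by −2.49 (edgeR adjusted p = 0.0198) and Kitl by −2.64 (edgeR adjusted p = 0.0227) between the cell sets. For Kitl the other Epcam cells had 51.5 and 48.9 CPM in WT against 74.9 and 74.6 in Z/Z. Mdk differed by 2.11 (edgeR adjusted p = 0.0195) and rose in both sets, with a log2 fold change of 1.62 in other Epcam cells. Ccnd2 differed by 3.15 (edgeR adjusted p = 0.00659), with 324 and 481 CPM in WT against 172 and 225 in Z/Z in the other Epcam cells. For Foxn1 the difference was −0.13 and did not pass (edgeR adjusted p = 0.953). The other Epcam cells mix medullary and further classes, so a change in the makeup of that mix and a change within its cells cannot be told apart.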

How the data were processed

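Single-cell RNA-seq of CD45- thymic stroma was used, with 2 WT and 2 Z/Z libraries grouped by their genotype labels. The authors deposited whole-number UMI counts per gene and barcode for each library, made with Cell Ranger 7.01 per the submitters' processing notes, which name the mouse builds GRCm38.p5 and mm10. The deposited run metrics give values as percent, such as sequencing saturation (65.2% to 95.2%). Called barcodes with over 1000 genes and under 20% mitochondrial UMIs were kept. The study instead judged such measures over clusters of cells and removed doublets. The members and gene lists were chosen with earlier results of these data known.

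UMI counts were summed over cTECs per library, without 100 ribosomal protein and haemoglobin features, and tested with edgeR 4.0.16 (R 4.3.3) by the quasi-likelihood F test, two-sided, with TMM scaling, filterByExpr and Benjamini-Hochberg adjustment at 0.05 over all genes tested. CPM values were computed from these deposited counts. The interaction model had library, cell set and cell set by genotype. The test was run on simulated counts first. Alternatives used DESeq2 1.42.0, limma 3.58.1 (with a pseudocount of 1), RLE scaling, other cell choices and thinning to 2000 UMIs. Doublets were not removed. Scrublet (scanpy 1.11.5), at its own threshold, marked 97 of 10245 cells, so the 3.9% with the highest score per library were left out as an alternative.

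Named genes were those of the cortical identity and ligand lists, the 8 higher and 8 lower with the lowest p and groups that did not overlap, the 10 with the highest ratio to other Epcam cells, 5 from the interaction, and from other lists the called genes and at most 4 others. 1 of the 8 lower genes is not reported here. Other genes named singly were chosen after their values were seen. Epcam cells had at least 1 Epcam UMI and 0 Pecam1 and Pdgfra UMIs, and fibroblasts at least 2 Pdgfra UMIs. Gene positions came from GENCODE vM21 and promoter sequences from RefSeq. Bounds against a group at 0 rest on 3 counts, and intervals cover counting error only.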

Additional observations from a re-analysis of the deposited data

Results flagged for a closer look

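For 5 genes the difference between genotypes was itself different in cTECs and in the other Epcam cells, by the edgeR test of the interaction. They are the 5 with the lowest p of that test. For Ryr3, a calcium channel gene, the log2 fold change in cTECs was lower by −4.12 (SE 0.37, edgeR adjusted p = 0.000295), with 419, 186, 12 and 24 UMIs in cTECs and 498, 376, 578 and 755 in other Epcam cells of WT 1, WT 2, Z/Z 1 and Z/Z 2. For Grp, which encodes gastrin-releasing peptide, it was higher by 4.69 (SE 0.55, edgeR adjusted p = 0.00383), with 14, 0, 32 and 84 UMIs in cTECs and 768, 45, 213 and 302 in other Epcam cells, and it passed in neither set alone. For Nup210l, a nucleoporin gene, the difference was −3.14 (SE 0.40), with a log2 fold change of 2.39 in other Epcam cells and −0.86 in cTECs. For Osmr, the oncostatin M receptor gene, it was −2.49 (SE 0.33), with log2 fold changes of 1.87 and −0.73. For Mndal it was −3.01 (SE 0.42), with −0.68 and −3.74. The edgeR adjusted p was 0.00659 for each of Nup210l, Osmr and Mndal. Without shared barcodes the difference no longer passed for Ryr3 (−2.30), Osmr (−1.17) and Mndal (−2.35), and without Z/Z 1 it did not for Osmr (−2.34, edgeR adjusted p = 0.0520).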

How the results depend on the processing

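The numbers of genes higher and lower in Z/Z cTECs (41 and 41, with the rule gene Ccl25 among the lower) depended on which cells and libraries entered. Higher and lower genes numbered 78 and 59 without shared barcodes, 26 and 25 at 10 rule UMIs per 10000, 57 and 94 without cells that held thymocyte UMIs, 11 and 26 after thinning (1896 genes tested), 26 and 28 with background subtracted, 154 and 190 with no filter and 33 and 42 with DESeq2. Leaving out 1 library gave 31 to 359 and 29 to 467. With the replicate number as a block they numbered 102 and 99, and all 81 calls outside the rule stayed. The correlation of deviations between libraries of the same number was 0.016. With 2 libraries per genotype it must be the same for both numbers, so it cannot decide whether the numbers pair the libraries. Chosen after seeing the data, leaving out the largest WT 2 cell gave 120 and 131, and a mean over cells with limma 0 and 0.

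The interaction (53 and 103) gave 132 and 102 without shared barcodes, 36 and 60 at 10 per 10000, 80 and 156 without cells with thymocyte UMIs, 16 and 23 after thinning, 237 and 271 with no filter, 169 and 257 with DESeq2, and 18 to 417 and 19 to 959 without 1 library. Foxn1 had a log2 fold change of 0.43 by the mean over cells (limma adjusted p = 0.805), against −0.38. Cxcl12 had one of 0.53 without shared barcodes (edgeR adjusted p = 0.9995). The share of cTECs differed by −0.991 points over all kept cells and by −0.983 without cells with thymocyte UMIs. Of 643 values for 32 genes with a printed fold change, Foxn1 apart, and for 5 interaction genes, 556 kept their direction and side of the threshold, 68 kept their direction and lost the call, 18 gained one, and 1, that of Cxcl12, reversed. Other named genes could change sign, such as Dll4 (−0.76 to 0.04). Genes too low under an alternative gave no value there. The cause was not tested. WT 2, with 6 cTECs, limits precision.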
